A study of Mus musculus with 3 samples.

Results

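Fibroblast growth factor (FGF) ligands, their receptors, and the adaptor *Grb2* were described in ALSCs, a mouse primed stem cell grown in Activin A and LIF. The 10 genes were taken by name from the table of counts per gene, out of 55421 named genes: the ligands *Fgf2*, *Fgf4*, *Fgf5*, *Fgf8*, and *Fgf15*, the receptors *Fgfr1*, *Fgfr2*, *Fgfr3*, and *Fgfr4*, and *Grb2*. All 10 were found, each in 1 row. ALSCs were derived from epiblasts of embryonic day 6.5 gastrulae, from ICR females mated with GOF/GFP males of mixed background. These males carry the Oct4ΔPE-GFP reporter, and the study reports ALSCs as negative for GOF/GFP. The cells were grown on fibronectin in a serum-free basic medium with Activin A and LIF. No FGF is listed among the additives of that medium. RNA-seq was made from 3 ALSC libraries (replicates 1, 2, and 3). The study calls them biological replicates, but whether they are separate lines is not given, so a p-value measures the spread between these libraries, which may be technical. The count columns are named EPI_AL and numbered, which was read as epiblast cells in Activin A and LIF, that is, as the ALSC libraries of the same numbers. The labels do not state this match, the study also made epiALSCs by moving EpiSCs to the same medium, and every value below rests on the match. ALSCs are the only condition analysed here, so no gene was tested against another cell type.

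FGF ligands are secreted proteins that bind receptor tyrosine kinases together with heparan sulfate at the cell surface. The activated receptor phosphorylates the docking protein FRS2, which recruits GRB2 and SOS and so switches on RAS and the ERK kinases. In the mouse embryo this pathway drives the exit from naive pluripotency, and FGF2 is the ligand usually added with Activin A to culture epiblast stem cells. *Fgf4* is a ligand of the early epiblast, *Fgf5* is a marker of the post-implantation epiblast, and *Fgf8* is made in the epiblast and the primitive streak.

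The libraries held 18037342 to 18724038 counts on named genes, so depth was alike. Levels are given as FPKM, the count scaled to the length of the gene and to the total of the library, with the gene length of the table, and as mean ± SD. A gene with no more than 3 counts was taken as not detected. Intervals and limits given here account for counting error alone, not for the spread between libraries. PCR copies were not marked by molecular identifiers, so these intervals may be too narrow. The label of the cells was checked against marker lists. A level of at least 1 FPKM in each library was seen for 5 of 5 pluripotency markers, 5 of 5 primed markers, 0 of 6 naive markers, 2 of 4 primitive streak markers, 3 of 8 fibroblast markers, 0 of 7 visceral endoderm markers, and 0 of 5 trophoblast markers. The cells are labelled embryonic stem cells, and of the 6 genes of naive cells, *Zfp42* and *Tbx3* did not exceed 3 counts, while *Klf4*, *Esrrb*, *Tfcp2l1*, and *Nr5a2* had mean levels of 0.342 to 0.788 FPKM. Of the primitive streak markers, mean levels were 1.96 FPKM for *Foxa2*, 1.32 for *Eomes*, 0.754 for *T*, and 0.478 for *Mixl1*. Summed over the list, fibroblast markers were at 12.6 to 14.2 FPKM. Most of that sum came from *Thy1* (mean 6.88 FPKM), *Col1a1* (5.04 FPKM), and *Fbln2* (1.22 FPKM), while *Dcn* and *Lum* were at 0 counts in every library. Visceral endoderm markers summed to 0.9 to 1.89 FPKM, most of it from *Amn* (1.38, 1.04, and 0.511 FPKM), with *Ttr* at 0 counts. Trophoblast markers summed to 0.389 to 0.514 FPKM, most of it from *Krt7* (mean 0.434 FPKM). The part of other cell types in the levels given here was not tested.

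One of the ligands, *Fgf5*, was also assayed by RT-qPCR in the study, so its primers show which part of the transcript that assay reads. Capitals mark the bases that lie in exon 3 of the longest coding transcript, and lower case marks exon 2. The forward primer crosses the junction, with 15 bases in exon 2 and 7 in exon 3, and the product spans 116 bases of the transcript.
Fgf5 forward primer: aaactccatgcaagtGCCAAAT
Fgf5 reverse primer: TCTCGGCCTGTCTTTTCAGTTC

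The 250 bases before the RefSeq start (GRCm38.p6) are shown for *Fgf4* and *Fgf5*, a pair of ligands with overlapping levels in ALSCs whose windows hold none of their own annotated exons. The window of *Fgf4* lies within its annotated gene, before an internal start. Capitals mark CpG dinucleotides. The window shown for *Fgf4* is chr7:144861136-144861385 and that for *Fgf5* is chr5:98253934-98254183, both on the plus strand.
Fgf4 promoter: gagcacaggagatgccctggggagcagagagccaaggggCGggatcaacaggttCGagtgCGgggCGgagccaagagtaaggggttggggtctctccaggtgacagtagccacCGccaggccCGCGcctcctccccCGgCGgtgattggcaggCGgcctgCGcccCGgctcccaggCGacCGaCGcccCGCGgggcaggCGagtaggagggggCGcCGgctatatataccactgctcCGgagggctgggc
Fgf5 promoter: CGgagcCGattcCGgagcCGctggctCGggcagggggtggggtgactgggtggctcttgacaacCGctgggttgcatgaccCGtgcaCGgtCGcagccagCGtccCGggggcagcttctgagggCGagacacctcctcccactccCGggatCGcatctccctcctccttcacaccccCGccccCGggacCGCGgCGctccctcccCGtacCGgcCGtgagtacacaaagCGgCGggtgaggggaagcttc
These windows held 21 CpG for *Fgf4* and 24 for *Fgf5*, against a median of 6 over the 32851 promoters of the RefSeq table. Promoters were found for 7 of the 10 genes, all but *Fgf8*, *Fgf15*, and *Fgfr1*. The window of *Fgf2* had 20 CpG, that of *Fgfr4* had 15, and those of *Grb2* had 6 and 2 before its listed starts. The window of *Fgfr2* also had 2, and those of *Fgfr3* had 19 and 24. Own annotated exons covered all 250 bases of the *Fgf2* window, 178 of the *Fgfr4* window, and 50 of the *Fgfr3* window with 19 CpG. The letters GGGCGG, which hold a CpG themselves, occurred on either strand in the windows of *Fgf2*, *Fgf4*, *Fgf5*, *Fgfr3*, and *Fgfr4*, and in 32.7% of all promoters. The letters TATAAA occurred on either strand in 1 of the *Grb2* windows alone, and in 12.4% of all promoters.

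*Fgf8* was the most abundant ligand of ALSCs, *Fgfr1* was the most abundant receptor, and *Fgf2* was not detected. Expression of at least 1 FPKM in each of the 3 libraries was found for 6 of the 10 genes (*Fgf4*, *Fgf5*, *Fgf8*, *Fgf15*, *Fgfr1*, and *Grb2*), against 20.1% of all named genes and 45.7% of protein-coding genes. The same count was found at thresholds of 0.5 and 2 FPKM. In bulk RNA a level cannot tell apart fewer cells that express a gene and less RNA per cell.

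**Figure D1:**
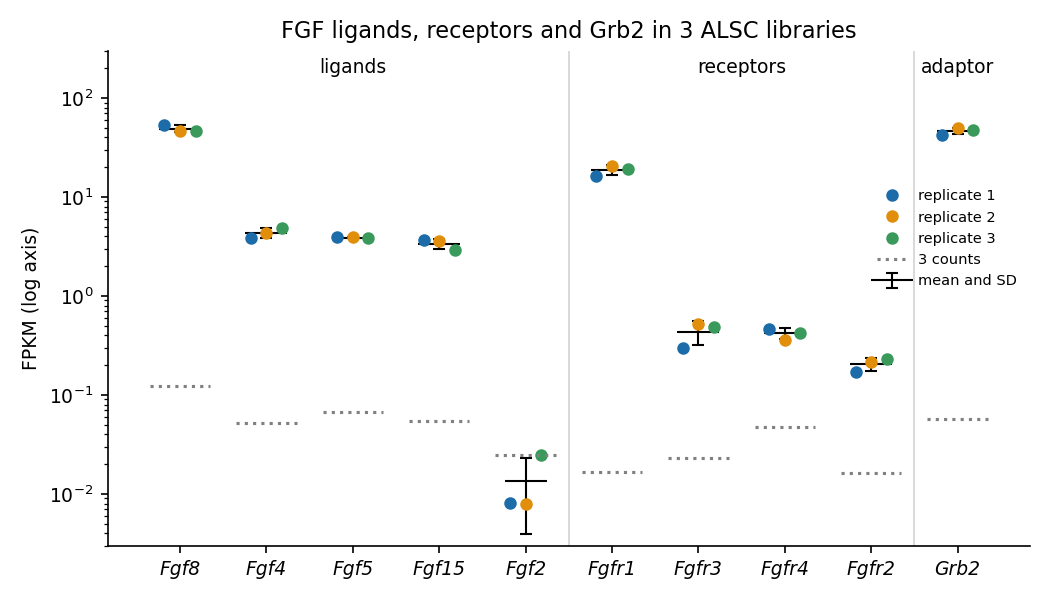
FPKM (log axis) of the 10 genes in the 3 ALSC libraries, with 1 point per library, the mean and SD as a bar, and the level that 3 counts would give as a dotted line. *Fgf8*, *Grb2*, and *Fgfr1* lie above 16 FPKM in every library, *Fgf4*, *Fgf5*, and *Fgf15* between 2.94 and 4.88 FPKM, *Fgfr2*, *Fgfr3*, and *Fgfr4* under 0.53 FPKM, and *Fgf2* at or under 3 counts.

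*Fgf8* (ENSMUSG00000025219, GRCm38 chr19:45736798-45742915) encodes a secreted ligand of the gastrulating embryo. Its level was 53.4, 46.9, and 46.3 FPKM in replicates 1, 2, and 3, or 48.9 ± 3.90 FPKM (SD, n = 3), from 1303, 1186, and 1128 counts. This placed it above 88.9% of the 11125 expressed genes, that is, those with at least 1 FPKM throughout. Of the summed FPKM of the 5 ligands, *Fgf8* took 82.3%, 79.9%, and 79.9% in the same order, so it exceeded the other four together in each library. Within a library its level was 10.9 to 13.8 times that of *Fgf4* in replicates 2 and 1, and 9.50 times in replicate 3.

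*Fgf4*, *Fgf5*, and *Fgf15* formed a second tier below it. *Fgf4* (ENSMUSG00000050917, chr7:144847367-144865243) was at 3.88, 4.30, and 4.88 FPKM, or 4.35 ± 0.502 FPKM (SD, n = 3). *Fgf5* (ENSMUSG00000029337, chr5:98254184-98277030) was at 3.91, 3.93, and 3.83 FPKM, or 3.89 ± 0.0503 FPKM (SD, n = 3). The levels of this pair overlapped, with *Fgf4* above *Fgf5* in 2 of 3 libraries by the table's length and in all 3 by transcript lengths, which are described next. *Fgf15* (ENSMUSG00000031073, chr7:144896531-144900953), the mouse counterpart of human FGF19, was at 3.65, 3.55, and 2.94 FPKM, or 3.38 ± 0.386 FPKM (SD, n = 3). It lay below *Fgf5* in all 3 libraries, without overlap of their ranges.

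The place of *Fgf15* in this order depended on the gene length. The table's length equals the bases covered by any annotated exon of the gene (GENCODE M21, the same build) for all 10 genes and for 99.25% of the genes that could be looked up. For *Fgf15* that is 3058 bases, while its longest coding transcript has 1810. Where transcript lengths are used, the count of a gene is unchanged. It may hold reads on exons outside that transcript, which would raise the level. With the length of the longest coding transcript, *Fgf15* was at 5.71 ± 0.652 FPKM (SD, n = 3), above the 4.59 ± 0.530 FPKM of *Fgf4* in 2 of 3 libraries and above *Fgf5* in all 3. Its exons also share 761 bases with the antisense gene *Gm26793*, and without strand in the counting, which is not given in the sources used here, reads of the 2 genes cannot be told apart.

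*Fgf2* (ENSMUSG00000037225, chr3:37348346-37410108), the ligand that epiblast stem cell media supply, had 1, 1, and 3 counts. Over the 3 libraries together this is 0.0134 FPKM, with an exact 95% Poisson interval of 0.00436 to 0.0314 FPKM. A level of 3 counts would be 0.0236 to 0.0245 FPKM, so *Fgf2* was not detectable at this depth in any library. Of its exon bases, 640 are shared with the antisense gene *Nudt6*, so that some reads could have gone uncounted. Of the 50-base words of its longest coding transcript, 87.3% occurred in no other annotated gene.

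*Fgf4* and *Fgf15* are neighbours on chromosome 7, and *Fgf3* lies beside them on the same strand (chr7:144838083-144844436). Only 2930 bases separate the annotated ends of *Fgf3* and *Fgf4*, and 31287 bases separate *Fgf4* and *Fgf15*, with 0 named genes between either pair. The RefSeq start of *Fgf4* whose window is shown above, chr7:144861386, lies inside its annotated gene and so further from *Fgf3*. *Fgf3* was the lowest of these neighbours, at 0.570, 0.873, and 1.05 FPKM, and did not overlap with *Fgf4* or *Fgf15*. In each library the ratio of *Fgf4* to *Fgf15* was 1.06, 1.21, and 1.66 on the scale of the table's length, and 0.662, 0.756, and 1.04 with transcript lengths, so that which one was higher could not be settled.

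**Figure D2:**
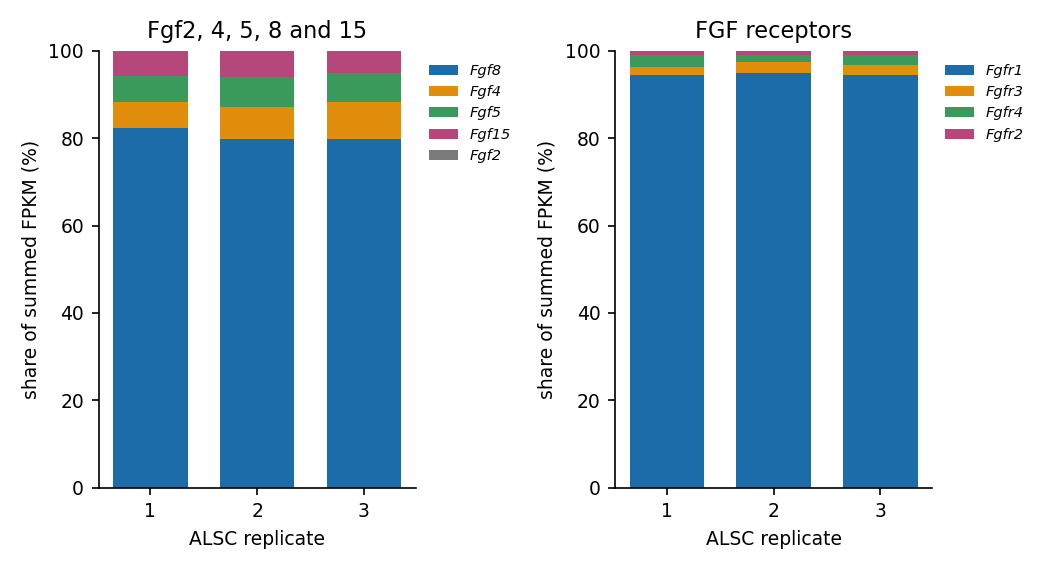
Share of the summed FPKM of the 5 ligands (left) and of the 4 receptors (right) taken by each gene, in percent, with 1 bar per ALSC replicate. *Fgf8* takes 79.9% to 82.3% of the ligand sum and *Fgfr1* takes 94.5% to 95.0% of the receptor sum, and *Fgf2* is too low to be seen.

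*Fgfr1* (ENSMUSG00000031565, chr8:25513654-25575718) encodes the main FGF receptor of the early mouse epiblast. It was measured at 16.2, 20.7, and 19.3 FPKM, or 18.8 ± 2.32 FPKM (SD, n = 3), higher than 72.6% of the expressed genes. Of the summed FPKM of the 4 receptors it took 94.5%, 95.0%, and 94.5% in replicates 1, 2, and 3.

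The other three receptors stayed under 1 FPKM in every library but above 3 counts. *Fgfr3* (ENSMUSG00000054252, chr5:33721674-33737068) was at 0.301, 0.522, and 0.480 FPKM, from 39, 70, and 62 counts. *Fgfr4* (ENSMUSG00000005320, chr13:55152640-55168759) was at 0.468, 0.362, and 0.423 FPKM, from 30, 24, and 27 counts. The ranges of these 2 receptors overlapped and their order differed between the libraries. *Fgfr2* (ENSMUSG00000030849), whose IIIb isoform is typical of epithelia, was lowest at 0.171, 0.217, and 0.231 FPKM, from 32, 42, and 43 counts, below both in all 3 libraries. *Fgfr1* exceeded *Fgfr2* by 91.3 ± 6.54 times, *Fgfr3* by 44.6 ± 7.98 times, and *Fgfr4* by 45.9 ± 11.4 times (mean ± SD of the ratio within a library, n = 3). Counts per gene do not separate the IIIb and IIIc isoforms of the receptors.

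As with *Fgf15*, the order of the weak receptors changed with transcript lengths. The annotated span of *Fgfr2* (chr7:130162451-133123350) covers 2960900 bases and encloses 68 other named genes. Its table length of 10328 bases stands against 4429 for the longest coding transcript. The exons of *Fgfr2* share 314 bases with *Ctbp2* on the same strand, and those of *Fgfr3* share 998 bases with the antisense gene *G630022F23Rik*. How reads there were counted is not given in the sources used here. With transcript lengths *Fgfr2* was at 0.481 ± 0.0727 FPKM, overlapping with *Fgfr4* at 0.445 ± 0.0569 FPKM and with *Fgfr3* at 0.733 ± 0.198 FPKM (SD, n = 3 for each). *Fgfr1* rose to 36.7 ± 4.55 FPKM on this scale and took 95.7% of the receptor sum, so its lead over the other receptors held on both scales. The ratio of *Fgf8* to *Fgfr1* was 3.29, 2.26, and 2.40 in replicates 1, 2, and 3 with the table's length, and 1.94, 1.33, and 1.41 with transcript lengths, above 1 in every library on both scales.

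*Grb2* (ENSMUSG00000059923, chr11:115644045-115708597) encodes the adaptor that carries the signal of FGF receptors, and of other receptor tyrosine kinases, to SOS. It was at 42.3, 49.5, and 47.7 FPKM, or 46.5 ± 3.73 FPKM (SD, n = 3), higher than 88.4% of the expressed genes. Its range overlapped with that of *Fgf8*, though with transcript lengths *Fgf8* was higher in all 3 libraries. With the table's length *Grb2* stood above *Fgfr1* by 2.61, 2.39, and 2.47 times in replicates 1, 2, and 3. With transcript lengths the ratio of *Grb2* to *Fgfr1* was 1.44, 1.31, and 1.36. Of the 50-base words of the *Grb2* transcript, 91.6% were found in no other gene, and the rest also occur in *Gm12791* and *Gm13542*, so part of its count may belong to those genes.

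The genes nearest in level were sought among protein-coding genes by the root mean square difference of log2 FPKM over the 3 libraries. Nearest to *Fgf8* was *Ctsz*, at a difference of 0.005, then *Timm50* at 0.016 and *Fam136a* at 0.017. Nearest to *Fgfr1* were *Washc5*, *Odf2*, and *Slc38a4*, at 0.032 to 0.036, and nearest to *Grb2* were *Aacs*, *Hells*, and *Zcchc3*, at 0.029 to 0.040. With 3 libraries of 1 condition this measure finds genes of the same level.

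Most of the rest of the ligand family was low in ALSCs. By the table's length, *Fgf11* had a mean of 4.51 FPKM, above the means of *Fgf4*, *Fgf5*, and *Fgf15*. In replicate 1 it lay below all of these. Of the other 17 FGF ligand genes, 8 were above 3 counts in each library, among them 4 at 1 FPKM or more, and 5 never exceeded 3 counts. Among the 4, *Fgf11* was at 3.40, 5.33, and 4.79 FPKM, *Fgf13* at 1.69 to 1.78 FPKM, and *Fgf14* at 1.49 to 1.70 FPKM. These 3 genes encode FGF homologous factors, which stay inside the cell and do not act through the FGF receptors. The remaining one, *Fgf17*, is a secreted ligand of the same subfamily as *Fgf8*, and was at 1.73, 1.08, and 1.25 FPKM. When all 22 ligand genes were summed, *Fgf8* took 71.0%, 66.0%, and 66.3% of the FPKM. This sum holds the genes of homologous factors too, so it is not a share of secreted ligands alone.

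Endocrine FGF ligands such as FGF15 signal with the help of klotho proteins. *Klb* had 0 counts in every library, and *Kl* had 0, 2, and 0 counts, so neither was detected. Of the other endocrine ligands, *Fgf21* had 3, 6, and 4 counts and *Fgf23* had 3, 1, and 1. *Fgfrl1*, a receptor-like protein without a tyrosine kinase domain, was at 5.41, 5.49, and 5.06 FPKM, above *Fgfr2*, *Fgfr3*, and *Fgfr4* in every library.

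**Figure D3:**
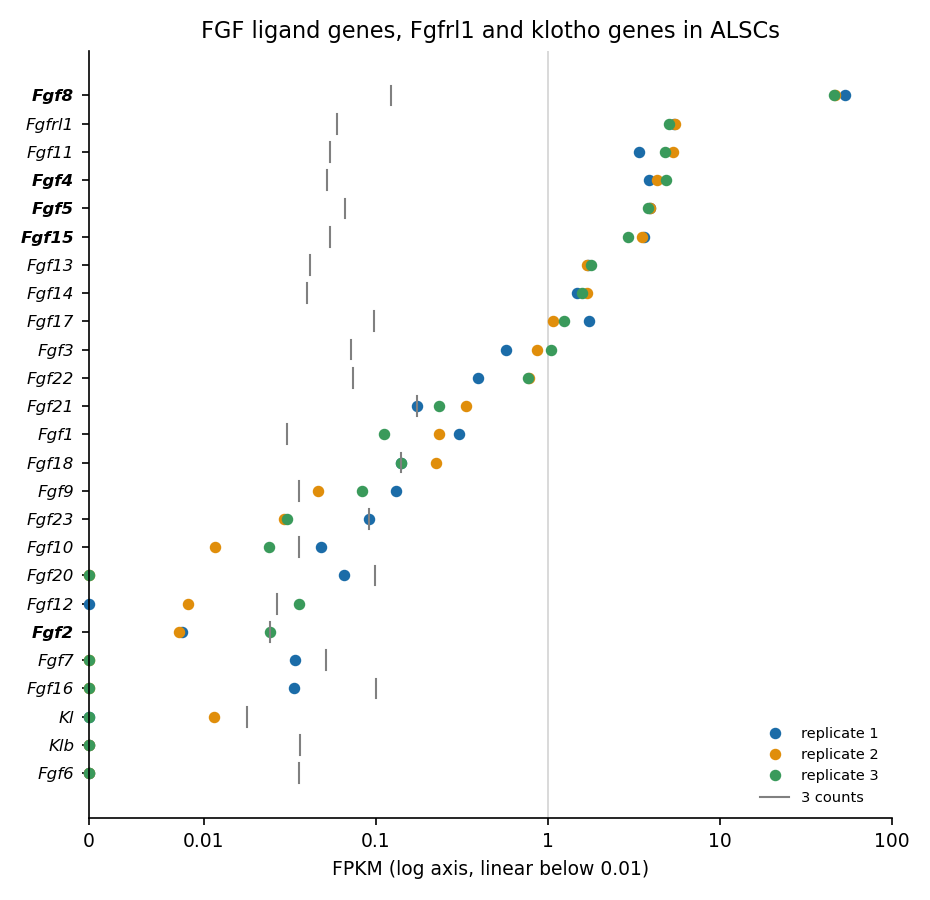
FPKM (log axis, linear below 0.01) of all 22 FGF ligand genes, *Fgfrl1*, *Kl*, and *Klb*, with 1 point per ALSC library and a tick at the level of 3 counts. The 5 ligands described first are in bold. *Fgf8* stands alone above 46 FPKM, and *Fgf2* lies among the genes at or under 3 counts.

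Whether the counts of a gene were spread over the 3 libraries more unevenly than counting error allows was examined by a chi-square test of homogeneity, after scaling with edgeR's TMM factors and with Benjamini-Hochberg adjustment over 16944 genes with at least 10 counts in total. This compares libraries of 1 condition, and its power grows with the count. It called 3 of the 9 genes that could be tested, *Fgf8*, *Fgfr1*, and *Grb2*, against 47.2% of all genes tested. Those 3 have the most counts of the list, between 3617 and 10172 in total, and among genes with 500 to 20000 counts in total 66.3% were called. Among genes with 10 to 1000 counts in total, where the other six lie, 25.5% were called. Without adjustment, *Fgf15* and *Fgfr3* passed too, 5 in all, against 53.1% of all genes. *Fgf2* had too few counts to be tested.

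*Fgf8* was highest in replicate 1, by a log2 ratio of 0.26 to the mean of replicates 2 and 3 (chi-square test, adjusted p = 3.7e-06). *Fgfr1* was lowest there, with a log2 ratio of -0.24 (adjusted p = 2.52e-13), as was *Grb2*, with -0.13 (adjusted p = 0.00354). Of all genes tested, 22.2% were called and highest in replicate 1 and 22.1% were called and lowest there. The other six genes tested had adjusted p-values of 0.0695 (*Fgfr3*), 0.0884 (*Fgf15*), 0.14 (*Fgf4*), 0.613 (*Fgfr4*), 0.627 (*Fgfr2*), and 0.871 (*Fgf5*). Without replicate 1, 0 of the 9 were called, and 1 (*Fgfr1*) passed at an unadjusted p under 0.05, against 8.11% and 21.2% of the genes tested. Without replicate 2, *Fgf15* was called too (chi-square test, adjusted p = 0.0347), against 42.9% of genes. Without replicate 3, *Fgfr3* was called too (adjusted p = 0.0287), against 46.7%.

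Gene length moved with these differences. Over the 10577 genes averaging 100 counts or more, the median log2 ratio of replicate 1 to the others went from 0.392 in the shortest of 20 length groups (median length 685 bases) to -0.527 in the longest (15642 bases). *Fgf8*, with 1350 bases, lay near the 0.339 of the group with a median of 1380 bases, and *Fgfr1*, with 9875 bases, near the -0.281 of the group with a median of 9439 bases. Once the trends with length and GC content were taken out, *Fgf8* had a log2 ratio of -0.0025 and was no longer called (adjusted p = 0.989). That of *Fgfr1* turned to 0.11 and it was still called (adjusted p = 0.00476), and that of *Grb2* fell to -0.23 (adjusted p = 4.35e-09). After this correction 37.6% of all genes were called, and the quartiles of the ratio over those 10577 genes were -0.16 and 0.16.

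**Figure D4:**
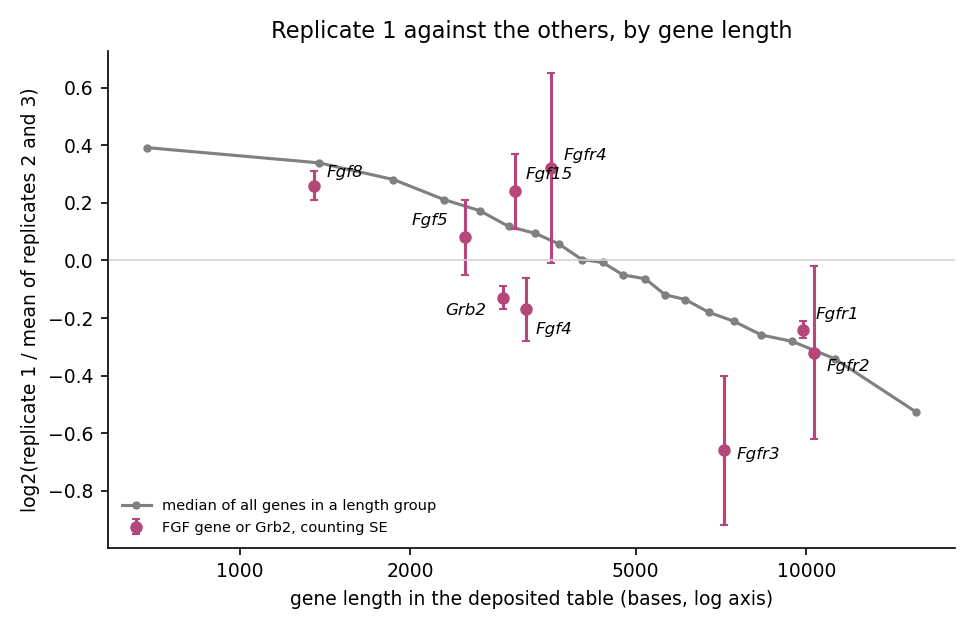
Log2 ratio of replicate 1 to the mean of replicates 2 and 3, after TMM scaling, against gene length in bases (log axis), for the 9 genes with at least 10 counts. Bars are the standard error from counting alone, and the grey line joins the medians of 20 length groups. *Fgf8* and *Fgfr1* lie near the line, and *Grb2*, *Fgf4*, and *Fgfr3* lie furthest below it.

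Transcripts of most genes that act with or after the receptors were detected in ALSCs. In 4 lists of pathway genes, 41 of 42 genes were at 1 FPKM or more throughout, against 45.7% of protein-coding genes. The exception was *Spry4*, a feedback inhibitor of RAS to ERK signaling, at 0.744, 1.29, and 1.04 FPKM. The lists were chosen with earlier results of these data known and carry no test of their own.

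All 10 genes of proximal signalling were at 1 FPKM or more. The adaptor gene *Crk* was highest, at 50.5 ± 4.42 FPKM, and the docking protein gene *Frs3* lowest, at 1.69 ± 0.00646 FPKM (SD, n = 3 for each). *Frs2*, which links the receptors to *Grb2*, was at 2.83, 4.72, and 4.86 FPKM, lower in replicate 1 than in both others (adjusted p = 2.11e-17). Of this list, 7 of 10 genes were called by the chi-square test, 7 with replicate 1 lowest and 0 with it highest. With the trends removed 6 were called. Counts of calls with the trends kept, in this list and those after it, stand against 47.2% of all genes tested. By direction, 22.1% of all genes tested were called with replicate 1 lowest and 22.2% with it highest. Among genes with 500 to 20000 counts in total that share was 66.3%. Counts of calls with the trends removed stand against 37.6% of all genes tested. The median log2 ratio of the list was -0.34, and -0.19 with the trends removed, against 0.0046 and -0.0012 over those 10577 genes.

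Among the RAS to ERK genes, *Mapk3*, which encodes ERK1, was highest at 61.2 ± 3.14 FPKM, and the kinase gene *Braf* lowest at 3.53 ± 0.633 FPKM (SD, n = 3 for each). Of the 10, 6 were called, 3 with replicate 1 lowest and 3 with it highest, and the median log2 ratio was 0.0026. Among 12 genes of heparan sulfate synthesis, editing, and core proteins, the glypican gene *Gpc3* was highest at 42.3 ± 4.16 FPKM, and *Ndst1*, which encodes a sulfotransferase, lowest at 2.91 ± 0.869 FPKM (SD, n = 3 for each). Of these, 6 were called, 5 with replicate 1 lowest and 1 with it highest, and the median log2 ratio was -0.066. With the trends removed the medians of these 2 lists were 0.0058 and 0.015, and 5 genes of each were called.

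Of 10 ERK feedback and response genes, the transcription factor gene *Etv5* was highest, at 33.7, 44.2, and 45.1 FPKM, and *Spry4* was lowest. In this list 7 genes were called, 5 with replicate 1 lowest and 2 with it highest, and the median log2 ratio was -0.26. With the trends removed 7 were called and the median was -0.30. The lower level in replicate 1 of *Etv5* was kept with the trends removed, with a log2 ratio of -0.31 (adjusted p = 2.61e-18). Without replicate 1 the calls in the 4 lists were 0, 1, 1, and 0 in the order given, against 8.11% of all genes tested.

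**Figure D5:**
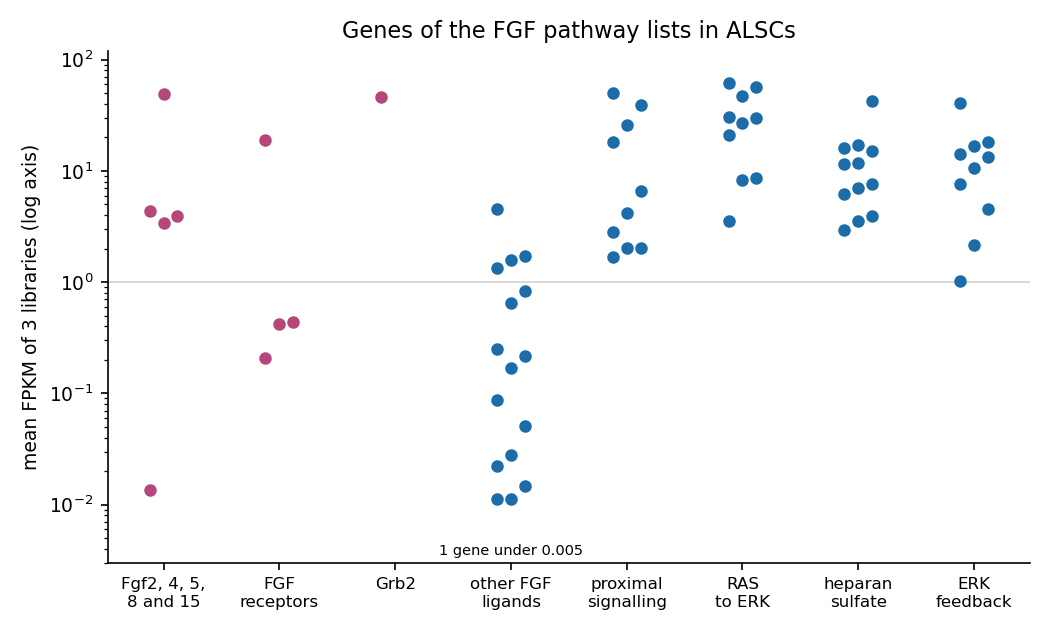
Mean FPKM (log axis) over the 3 ALSC libraries of the genes in each list, with 1 point per gene, the 10 genes described here in pink and the other lists in blue, with *Fgf6*, at 0 counts, noted below the axis range. Genes from proximal signalling to ERK feedback lie above 1 FPKM, while most of the other FGF ligands and 3 of the 4 receptors lie under it.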

How the data were processed

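RNA was extracted from ALSCs with Trizol and made into polyA libraries with the TruSeq kit, per the labels, while the study's methods name a column kit. The authors deposited raw counts per gene of paired-end reads mapped to GRCm38, without normalization. HISAT2 2.0.5 is named in the submitters' processing notes. The counting program, its strand setting, and its handling of reads with several positions are not given in the sources used here. The 317 rows without a gene name held 0.165% to 0.182% of the counts and were left out. The 3 other columns of counts match no sample described here and were not used. The EPI_AL columns were matched to the ALSC samples by name and number, which the labels do not state.

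FPKM was computed from the deposited counts, the table's gene length, and the total count on named genes. Lengths and GC content of the longest coding transcripts came from GENCODE M21. The chi-square test used TMM library sizes, at least 10 counts in total, and a threshold of 0.05 on the adjusted p, and was tested on simulated data. The trends were medians in 20 groups, on length and then on GC content. Named were the 10 genes, the other ligands at 1 FPKM or more, and in each list the highest, the lowest, and those not at 1 FPKM throughout. *Fgf3*, *Fgf21*, *Fgf23*, and *Frs2* were added after their values were seen. The 10 genes and the lists were chosen with earlier results of these data known. Alternatives were other lengths, library sizes, thresholds, and leaving out each library. TMM factors came from edgeR 4.0.16 and size factors from DESeq2 1.42.0 under R 4.3.3. The rest was run in Python 3.11.15 with SciPy 1.17.1, NumPy 2.4.6, matplotlib 3.10.9, and pandas 2.3.3.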

Additional observations from a re-analysis of the deposited data

How the results depend on the processing

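No paired analysis was possible because only 1 condition was analysed here. The number of genes at 1 FPKM or more in every library stayed at 6 under every alternative tried, and that of the pathway lists was 36 to 42. TPM was not among the alternatives for these counts, and as TPM *Fgfr3* and *Fgfr4* had means of 1.22 and 1.15. The chi-square test called 3 genes, the same 3 with DESeq2's size factors and with other limits on low counts, 0 to 4 when 1 library was left out, and 5 without adjustment, which was added after seeing the data. With raw totals it called 4 and with the trends removed 2. Depth limits what can be said of *Fgf2*, at 5 counts in all, and of the weak receptors.

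The shares and levels moved by more than 1 SD with these settings. With lengths of the longest coding transcript, the share of the ligand sum was 5.52% for *Fgf5* and 8.07% for *Fgf15*, and the share of the receptor sum was 95.7% for *Fgfr1*, 1.25% for *Fgfr2*, and 1.18% for *Fgfr4*. The levels were then 56.5 FPKM for *Fgf8*, 5.71 for *Fgf15*, 36.7 for *Fgfr1*, 0.481 for *Fgfr2*, and 0.733 for *Fgfr3*. With raw counts in place of FPKM, the shares were 65.9% for *Fgf8*, 14.0% for *Fgf4*, 9.74% for *Fgf5*, 10.3% for *Fgf15*, and 0.0929% for *Fgf2*, and 96.5% for *Fgfr1*, 1.6% for *Fgfr3*, and 0.787% for *Fgfr4*. With all 22 ligand genes in the sum, homologous factors among them, the shares were 67.8% for *Fgf8*, 5.41% for *Fgf5*, and 4.68% for *Fgf15*. With *Fgfrl1* in the receptor sum they were 74.5% for *Fgfr1*, 1.71% for *Fgfr3*, and 0.82% for *Fgfr2*. As TPM, another unit, the levels were 0.0378 for *Fgf2*, 12.1 for *Fgf4*, 10.8 for *Fgf5*, 135 for *Fgf8*, 9.32 for *Fgf15*, 52.1 for *Fgfr1*, 0.574 for *Fgfr2*, 1.22 for *Fgfr3*, 1.15 for *Fgfr4*, and 129 for *Grb2*.

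Replicate 1 against the mean of the others, as a log2 ratio, changed sign with the trends removed for *Fgf8* (0.26 to -0.0025), *Fgfr1* (-0.24 to 0.11), *Fgf5* (0.081 to -0.11), and *Fgfr2* (-0.32 to 0.03), and moved from -0.13 to -0.23 for *Grb2*. With raw totals it was 0.19 for *Fgf8*, -0.31 for *Fgfr1*, and -0.20 for *Grb2*. That the removal of trends on length and GC content moved these ratios follows from its construction.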
